A study of Mus musculus with 80 samples.

Results

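Gene expression in inguinal white adipose tissue (iWAT), the subcutaneous fat depot of the groin, was compared between mice labelled UCP1 KO and WT mice, both of which carried intact Fgf21. All libraries with these 2 labels in this tissue were taken, which gave 5 UCP1 KO and 5 WT libraries, 10 of the 80 libraries of the series. They were normalised in 1 model with the 5 FGF21 KO and 5 dKO libraries of the same tissue, 20 iWAT libraries in all. The study describes the UCP1 KO mice as lacking uncoupling protein 1, which the counts here do not check, and the FGF21 KO mice as lacking fibroblast growth factor 21. The dKO mice are labelled as double knockouts of UCP1 and FGF12, and the study describes them as lacking UCP1 and FGF21. In these 5 libraries Fgf21 had 0 counts. The mice were homozygous males on a C57BL/6J background, raised at 30 °C and, at 10 to 12 weeks of age, moved to 23 °C and a high-fat diet for 3 weeks.

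Inguinal fat of mice can acquire brown-like, thermogenic adipocytes in the cold, a change known as browning. UCP1 lets protons flow back into the mitochondrial matrix so that fuel oxidation releases heat, and it is the defining protein of brown and beige fat cells. FGF21 is a hormone of liver and adipose tissue that acts through FGF receptors and the co-receptor β-Klotho, and it is induced by the ATF4 arm of the integrated stress response. Mice without UCP1 keep their body temperature at mild cold by other routes, and the question addressed here was how inguinal fat responds to the loss of UCP1 while FGF21 can be made.

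Between 36788474 and 44683908 reads were counted on genes in the WT libraries and between 33654053 and 36588343 in the UCP1 KO libraries. The UCP1 KO totals were all lower than the WT totals (exact permutation test, two-sided, p = 0.00794, which no 5 against 5 can go below). Expression is given as CPM, read counts divided by the scaled library size and set to a common total, and is compared only within a gene. Of the 32764 genes in the files, 17380 passed a filter on low counts. Libraries stood apart by markers of other tissues. The lymph node score, the mean log2(CPM + 0.1) of 8 lymphocyte genes, was between 6.4 and 7.33 in 9 of the 20 libraries, among them WT replicates 4 and 5 and UCP1 KO replicate 2, and between -0.536 and 1.68 in the other 11. edgeR called 0 of these 8 markers between the groups (0 at an unadjusted p under 0.05, DESeq2 0). Their summed level was 9.72, 20.4, 31.1, 838 and 1105 CPM in the WT libraries and 12.7, 1539, 10.0, 8.36 and 12.5 CPM in the UCP1 KO libraries. The summed level of 10 skeletal muscle markers was 24.8, 25.6, 84.4, 939.5 and 9915 CPM in WT and 21660, 39.0, 52.9, 39.5 and 429.8 CPM in UCP1 KO, so that WT replicate 5 and UCP1 KO replicate 1 were the highest of their groups (edgeR 0 of 10 called, 0 at an unadjusted p under 0.05, DESeq2 0). Results are therefore given also for the 3 WT and 4 UCP1 KO libraries of low lymph node score, fitted with the 3 dKO and 1 FGF21 KO libraries of low score. Among these libraries, which include UCP1 KO replicate 1 and leave out WT replicate 5, the muscle markers had a median log2 fold change of 6.98, with 10 of 10 at an unadjusted p under 0.05 (edgeR called 0). Without UCP1 KO replicate 1, a setting chosen after the data were seen, the median was 1.93 and 3 of 10 had such a p. Adipocyte markers (Adipoq, Plin1, Fabp4 and 5 others) were expressed in every library, at a summed level of 14340 to 27820 CPM in WT and 14480 to 26690 CPM in UCP1 KO. In such bulk samples, fewer cells of a type and less RNA per cell cannot be told apart.

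The targeted gene was examined first. Ucp1 (chr8:83290348-83298456, RefSeq, GRCm38.p6) had 4.54, 4.30, 9.46, 16.7 and 2.64 CPM in WT replicates 1 to 5 and 245, 102, 475, 338 and 735 CPM in UCP1 KO replicates 1 to 5. The libraries labelled UCP1 KO were thus all above the WT libraries, against the direction of the label. The log2 fold change, given throughout as UCP1 KO over WT ± SE, was 5.65 ± 1.23, and it did not pass the threshold used here over all libraries (edgeR quasi-likelihood test, Benjamini-Hochberg adjusted p = 0.0195), although it did among the libraries of low lymph node score (6.17, adjusted p = 0.000577). In brown fat (BAT) the libraries with these labels went the other way, with 7146, 7828, 9102, 3886 and 7071 CPM in WT and 1509, 1064, 1482, 1004 and 649 CPM in UCP1 KO. The counts are for the whole gene, and the part of the transcript from which reads came was not analysed here, so they do not check the deletion. Every direction below is that of the libraries labelled UCP1 KO.

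Genes that neighbour Ucp1 give a further description of the labels. Of 125 tested genes within 10 Mb of Ucp1 on either side, 3 were called higher and 1 lower (3.2%), against 0.593% and 0.0173% of all 17380 genes tested. Mri1, an enzyme of methionine salvage, fell from 17.0 ± 1.49 to 8.14 ± 0.976 CPM (SD, n = 5 each; log2 fold change -1.06 ± 0.10, adjusted p = 8.98e-05), and its values ran from 15.5 to 19.1 CPM in WT and from 7.29 to 9.60 CPM in UCP1 KO. The calcium channel subunit Cacna1a rose (log2 fold change 1.73 ± 0.23, adjusted p = 0.000946), as did the scaffold protein Gipc1 (0.55) and the deubiquitinase Usp38 (0.79). Between dKO and FGF21 KO, which share no library with this comparison, the log2 fold changes of the same genes were -1.14, 2.04, 0.42 and 0.31, each with an unadjusted p under 0.05, and 2 of the 125 genes, Mri1 and Cacna1a, were called there. No other gene of the 17380 was called in that contrast (0.0115%). In BAT, Mri1 fell (-0.75), Gipc1 (0.93) and Usp38 (0.65) rose and Cacna1a was not called (-0.58). Whether these differences come with the locus or with the rest of the genotype cannot be told apart in this design.

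In all, 106 of 17380 genes passed an adjusted p of 0.01, and 103 of them were higher in UCP1 KO (0.593% of the genes tested) and 3 were lower (0.0173%). The rises were large, with a median log2 fold change of 1.96 and a range from 0.55 to 8.39, and 50 exceeded 2 on the log2 scale. In 100 of the 103 the UCP1 KO libraries all exceeded the WT libraries, a pattern that 2.92% of all genes showed, and in the 3 that fell they all lay lower, as in 0.909% of all genes. Of these 106 genes, 97 were also called in the low-score libraries alone, where 3.22% of genes were called higher and 0.512% lower, and 104 in those libraries without UCP1 KO replicate 1, where 5.38% were called higher. At an adjusted p of 0.05, 402 genes were higher (2.31%) and 48 lower (0.276%). The number of calls depended strongly on the libraries in the fit. It was 16, 16, 17, 46 and 45 without WT replicates 1 to 5 in turn, 360 without UCP1 KO replicate 2, 53, 41 and 49 without UCP1 KO replicates 3, 4 and 5, and 164 without FGF21 KO replicate 2. It was 1 (Elovl3) when only the 10 libraries of the comparison were fitted, 597 of 17380 by DESeq2 (545 higher, 52 lower, all 106 included), and 821 (541 higher, 280 lower) with a term for the lymph node score. Each of the 106 kept its direction without any 1 of the 20 libraries. The overlap counts, the low-score fits and the fits without 1 library use libraries that also chose these genes. They are therefore not independent of the calls. Of these 20 fits, all called 15 of the genes, among them Elovl3, Acot11, Gk, Gpd2, Pank1, Arhgdig, Cacna1a and Mri1, and 16 called Cidea, 16 Dio2, 17 Cpt1b, 17 Esrra, 14 Ppara, 14 Pdk4, 11 Elovl6, 8 Fgf21, 6 Cox7a1 and 4 Cox5a. Lhx8 and Cbx6, both lower, were called in 7 and 11 of these fits, and Gipc1 and Usp38, near Ucp1, in 8 and 14.

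**Figure D1:**
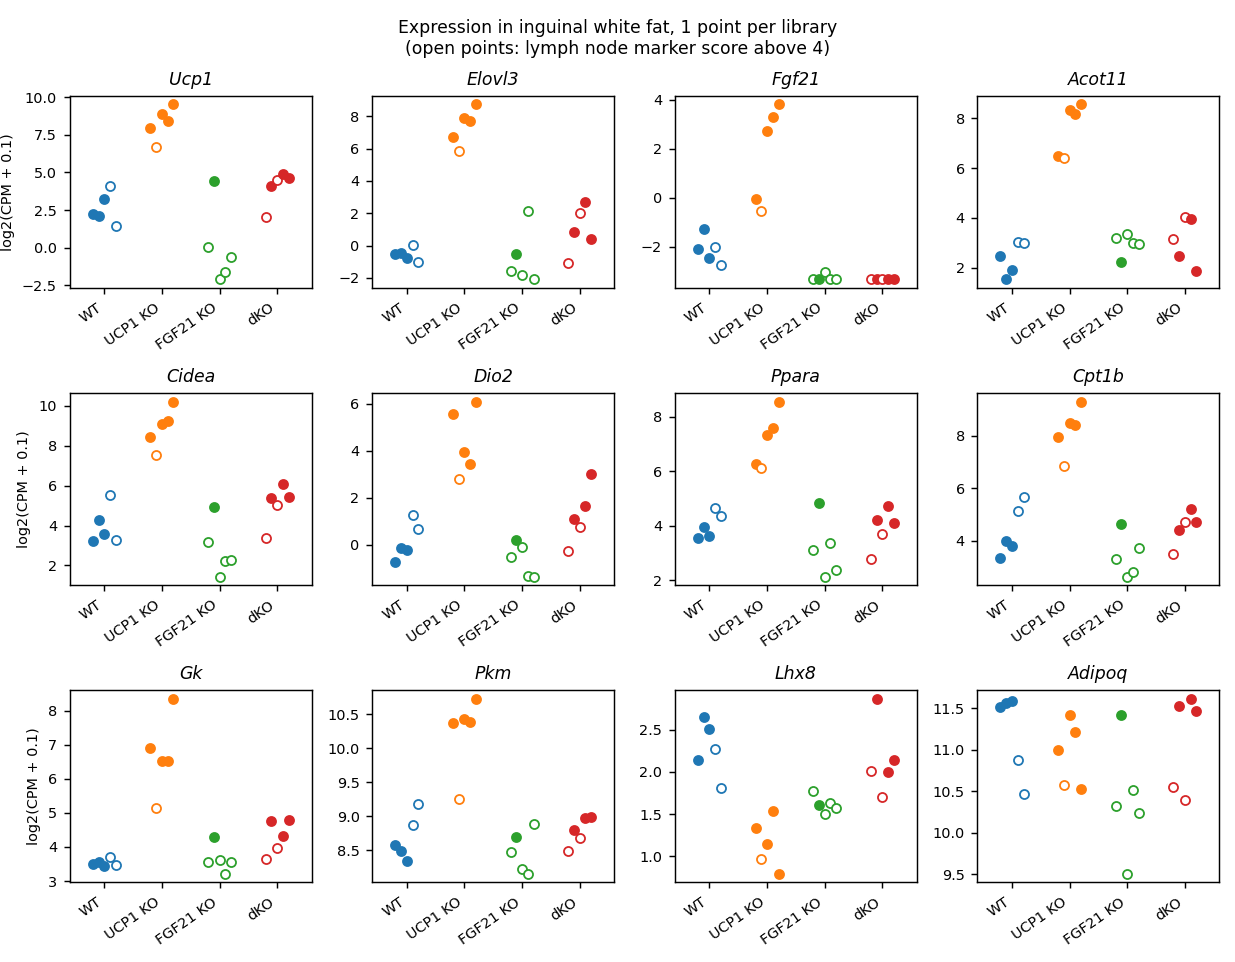
Level of 12 genes, as log2(CPM + 0.1), in each iWAT library of the 4 genotypes (5 points per genotype, open where the lymph node score is above 4). Except in Lhx8, where the UCP1 KO libraries lie below WT, and Adipoq, where groups overlap, the 5 UCP1 KO libraries lie above the 5 WT libraries.

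The largest rise was that of Elovl3, an elongase of very long chain fatty acids typical of brown fat. It had 0.610, 0.635, 0.485, 0.928 and 0.388 CPM in WT and 106, 56.6, 232, 209 and 426 CPM in UCP1 KO (log2 fold change 8.39 ± 1.12, adjusted p = 0.000935), and the lowest UCP1 KO library was far above the highest WT library. Acot11, a thioesterase that cleaves fatty acyl-CoA, rose from 5.51, 2.80, 3.64, 8.05 and 7.92 CPM to 88.7, 85.7, 327, 286 and 378 CPM (log2 fold change 5.38 ± 0.56, adjusted p = 0.000148). Neither gene had overlapping groups, and the highest level of each was in UCP1 KO replicate 5. Several large rises came from genes that were almost without reads in WT. Bmp8b, a secreted factor of brown fat, had 5 reads over the 5 WT libraries and 691 over the 5 UCP1 KO libraries, a ratio per library size of 174 with a 95% exact binomial interval of 74.0 to 536. Such intervals cover counting error only. No library of the other 3 genotypes had more than 10 Bmp8b reads. The gene therefore passed the low-count filter only through the UCP1 KO libraries, where it was high. The ratio was 193 (53.1 to 1600) for Sptlc3, a subunit of the enzyme that starts sphingolipid synthesis, 104 (28.2 to 863) for Atp4b, the β subunit of the gastric proton pump, 95.9 (32.4 to 468) for the little-known gene Fam131c and 35.7 (17.0 to 90.0) for Arhgdig. In each of these 5 genes no WT library had more than 3 reads. Lgr6, a receptor for R-spondins, rose by 6.55 on the log2 scale, the fructose transporter Slc2a5 by 5.19, Cpn2, the regulatory subunit of carboxypeptidase N, by 4.84 and the asparaginase Aspg by 4.45. Of the 20 fits without 1 library 15 called Lgr6, 8 Slc2a5, 7 Cpn2 and 14 Aspg. UCP1 KO replicate 5 was the highest of its group for Sptlc3, at 7.90 CPM against 0.207 to 1.15 CPM in the other 4.

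Over all libraries, and with the low-count filter, genes of brown and beige adipocytes had the highest median of the lists examined. No test compared lists. Skeletal muscle markers had the higher median in the low-score libraries (6.98 against 2.54) and with the lymph node score as a term (4.26 against 1.97). Of 29 tested brown and beige genes, 12 were called higher and 1 lower over all libraries, with a median log2 fold change of 2.23 against -0.03 over all genes. In the low-score libraries 19 were called higher (20 without UCP1 KO replicate 1). Cidea, a lipid droplet protein abundant in brown fat, had 9.14, 19.3, 11.9, 45.5 and 9.64 CPM in WT and 340.2, 185, 551, 596 and 1185 CPM in UCP1 KO (log2 fold change 4.90 ± 0.78, adjusted p = 0.00305). The 5 UCP1 KO libraries were all above WT, and the lowest of them was replicate 2, the library of high lymph node score. Cox7a1, a cytochrome c oxidase subunit of muscle and brown fat, had 4.54, 5.66, 4.93, 10.2 and 24.7 CPM in WT and 83.0, 34.2, 119, 132 and 223 CPM in UCP1 KO (log2 fold change 3.56 ± 0.67, adjusted p = 0.00854), and its highest WT library was replicate 5, the one richest in muscle transcripts. P2rx5, an ATP-gated channel on the surface of brown adipocytes, rose by 2.23 and Pank1, which makes the precursor of coenzyme A, by 2.64 on the log2 scale. Cpt1b, Acot2, Mpzl2, Dio2, Ppara and Bmp8b were also among the called members and are described here or with their pathway. Mpzl2, a cell adhesion protein, rose by 2.16. Lhx8, a transcription factor counted among the markers of classical brown fat, fell. It had 4.32, 6.18, 5.58, 4.75 and 3.39 CPM in WT and 2.43, 1.86, 2.10, 2.80 and 1.63 CPM in UCP1 KO (log2 fold change -1.16 ± 0.22, adjusted p = 0.00735), without overlap. Markers proposed for beige precursors or beige cells, Tbx1 (-0.18), Tmem26 (-0.09) and Tnfrsf9 (-0.38), and the transcriptional co-regulator Prdm16 (0.26) were not called, each with an adjusted p above 0.8. Besides Mri1 and Lhx8 the one gene called lower was Cbx6, a chromatin reader of the Polycomb complex, with 59.4, 57.9, 62.5, 54.6 and 48.8 CPM in WT and 48.3, 37.6, 35.3, 33.6 and 36.3 CPM in UCP1 KO (log2 fold change -0.57 ± 0.10, adjusted p = 0.00698). The lowest WT and the highest UCP1 KO library were nearly equal, and in the low-score libraries neither Lhx8 (-1.27, adjusted p = 0.0149) nor Cbx6 (-0.66, adjusted p = 0.0151) was called.

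**Figure D2:**
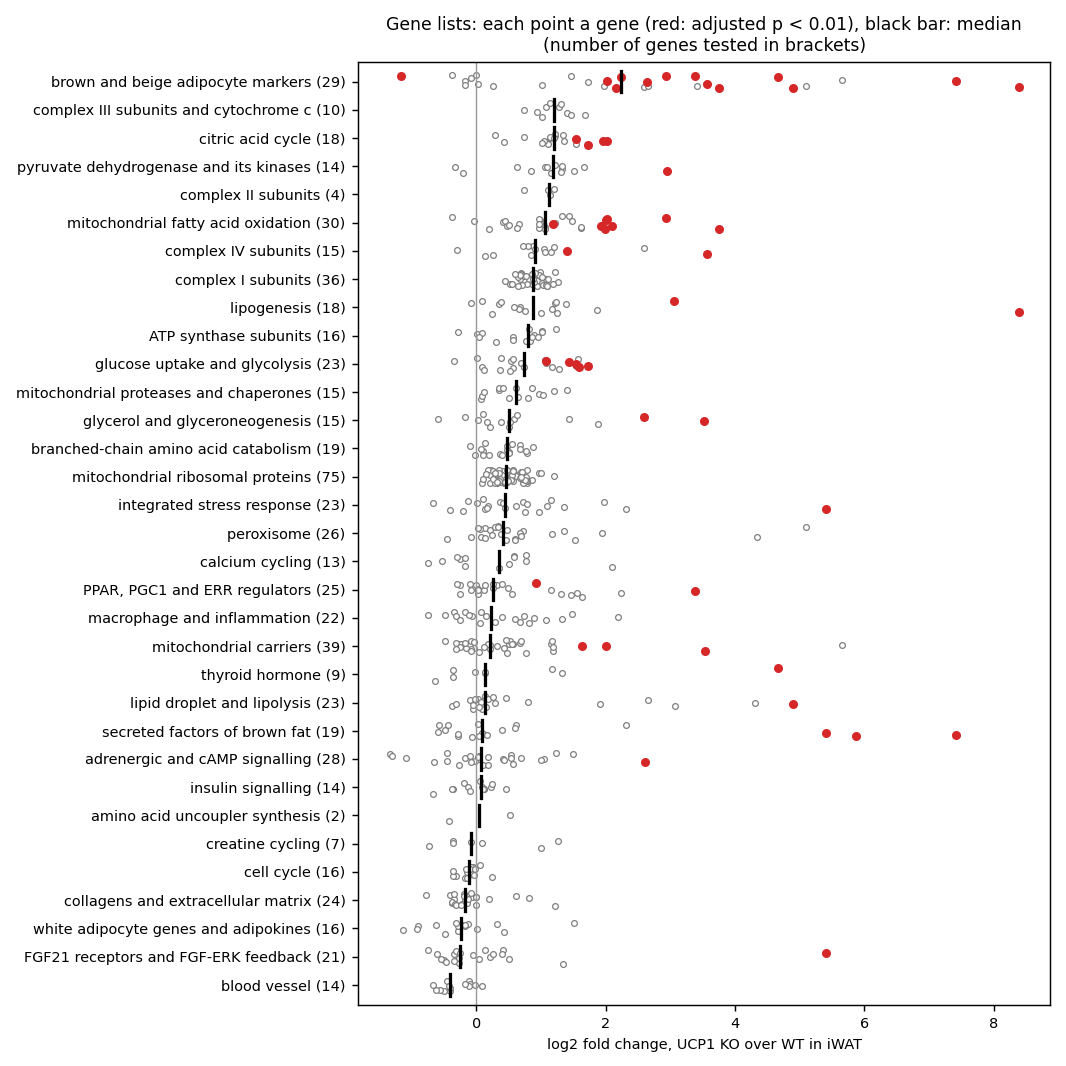
Log2 fold change, UCP1 KO over WT in iWAT, of every tested gene in each list (points, red where the adjusted p is under 0.01), with the list median as a black bar. Medians run from 2.23 for brown and beige adipocyte markers to -0.40 for blood vessel genes.

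Enzymes that burn fatty acids in mitochondria rose at several steps. Of 30 tested genes of mitochondrial fatty acid oxidation, 8 were called higher and 0 lower, 23 were higher with an unadjusted p under 0.05, as were 10.2% of all genes (4.46% were lower), and the median was 1.06. Cpt1b, the muscle form of the enzyme that commits fatty acids to mitochondrial import, had 9.95, 16.0, 13.6, 34.9 and 50.4 CPM in WT and 248, 115, 355, 339.9 and 634 CPM in UCP1 KO (log2 fold change 3.76 ± 0.56, adjusted p = 0.00213). The groups did not overlap, and the 2 highest WT libraries were those of high lymph node score. Cpt1a, the liver form, had a log2 fold change of -0.03 (adjusted p = 0.96). The carrier Slc25a20, which brings acylcarnitines across the inner membrane, rose by 2.01, the very long chain dehydrogenase Acadvl by 2.03, the thiolase Acaa2 by 1.99, the matrix thioesterase Acot2 by 2.94 and the acyl-CoA synthetase Acsl5 by 1.19 on the log2 scale. Hadha and Hadhb, the 2 subunits of the trifunctional protein, rose by 1.93 ± 0.33 and 2.10 ± 0.39. Hadha had 305, 334, 302, 349.6 and 275 CPM in WT and 844, 511, 1292, 1314 and 2004 CPM in UCP1 KO, and Hadhb 314, 352, 309, 349 and 245 CPM and 883, 575, 1403, 1598 and 2256 CPM. For both genes the order of the UCP1 KO libraries was the same, with replicate 2 lowest and replicate 5 highest. With the muscle score as a covariate Cpt1b stayed called (3.95), and without WT replicate 5 and UCP1 KO replicate 1 in turn its log2 fold change was 4.18 and 3.85.

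The genes Hadha and Hadhb point away from each other, and only 272 bases lie between their annotated starts. This stretch is shown because both genes were called. It is given on the strand of Hadhb (chr5:30154981-30155252, plus; RefSeq, GRCm38.p6), and it held none of the 6 motifs named further on:
Hadha/Hadhb: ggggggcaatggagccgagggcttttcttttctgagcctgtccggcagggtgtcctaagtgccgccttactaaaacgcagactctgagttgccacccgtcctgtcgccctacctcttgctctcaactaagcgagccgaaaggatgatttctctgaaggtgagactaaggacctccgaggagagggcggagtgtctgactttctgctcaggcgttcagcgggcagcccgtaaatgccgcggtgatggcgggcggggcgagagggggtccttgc

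Genes of the citric acid cycle were among those that rose. Of 18 tested genes of the cycle 4 were called higher and 0 lower, with a median of 1.21. Among them were the succinate-CoA ligase subunits Sucla2 (168, 206, 168, 171 and 148 CPM in WT, 484, 281, 717, 719 and 1160 CPM in UCP1 KO; log2 fold change 1.96 ± 0.36, adjusted p = 0.00669) and Suclg1 (1.72) and the isocitrate dehydrogenase subunit Idh3b (1.53). Of the 20 fits without 1 library 10 called Sucla2, 10 Idh3b and 5 Suclg1, and 3 genes of the cycle were called with the muscle score as a covariate. Citrate synthase, Cs, had a log2 fold change of 1.14 that was not called (adjusted p = 0.135). Of 14 genes of the pyruvate dehydrogenase complex and its kinases, 1 was called by edgeR and 10 by DESeq2, and 12 were higher at an unadjusted p under 0.05. The called gene was Pdk4, the kinase that switches the complex off in fasting, with 167, 228, 177, 183 and 319 CPM in WT and 1038, 500.4, 1480, 1818 and 3421 CPM in UCP1 KO (log2 fold change 2.94 ± 0.49, adjusted p = 0.00363). The UCP1 KO libraries were all higher, with the highest level in replicate 5.

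Few respiratory chain genes were called. All 36 complex I subunits had a log2 fold change above 0, from 0.44 to 1.26 (median 0.89). edgeR called 0 of them over all libraries, 34 had an unadjusted p under 0.05, DESeq2 called 19, and edgeR called 33 of 36 in the low-score libraries, among which the muscle markers of UCP1 KO replicate 1 were the highest, and 35 of 36 there without that library. Of all 17380 genes 10.2% were higher at an unadjusted p under 0.05, and DESeq2 called 545 higher. edgeR called 3.22% of all genes higher in the low-score libraries and 5.38% there without UCP1 KO replicate 1. The summed level of the 36 complex I genes was 3097, 3397, 3089, 3056 and 2619 CPM in WT and 5261, 3108, 6428, 6239 and 8131 CPM in UCP1 KO. UCP1 KO replicate 2 lay within the WT range and the other 4 UCP1 KO libraries lay above it. In complexes II and IV and in ATP synthase too, UCP1 KO replicate 2 lay within the WT range of the summed level and the other 4 UCP1 KO libraries above it. Of the 4 complex II subunits edgeR called 0, 4 had an unadjusted p under 0.05, DESeq2 called 3 and the median was 1.13. For the 10 genes of complex III and cytochrome c these numbers were 0, 10, 9 and 1.21, and for the 16 subunits of ATP synthase 0, 12, 7 and 0.79. Of 15 complex IV subunits, Cox7a1 and Cox5a (1.41 ± 0.27) were called, DESeq2 called 7, and the median was 0.90. Of 75 mitochondrial ribosomal proteins 0 were called by edgeR, 56 were higher with an unadjusted p under 0.05, DESeq2 called 18, and the median of 0.46 was smaller than that of any respiratory complex. Of 15 mitochondrial proteases and chaperones edgeR called 0, with 11 higher at an unadjusted p under 0.05, and DESeq2 called 5. Among 39 mitochondrial carriers 3 rose, Slc25a20, the little-studied carrier Slc25a34 (3.54) and Slc25a42, which carries coenzyme A (1.64). They were called in 12, 10 and 2 of the 20 fits without 1 library.

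Several genes of glucose breakdown rose. Of 23 tested genes of glucose uptake and glycolysis 5 were called higher, 14 were called in the low-score libraries, and the median was 0.74 over all libraries and 1.21 over those of low score. Muscle markers moved with the low-score values, as given above, and the summed level of the list, 5812, 5839, 5191, 5742 and 6666 CPM in WT and 13400, 5819, 12440, 10900 and 13260 CPM in UCP1 KO, was highest in the library of each group with most muscle. In the low-score libraries without UCP1 KO replicate 1, 16 were called higher and 1 lower, with a median of 1.11. Pkm, pyruvate kinase, had 379, 359.5, 323, 467 and 579 CPM in WT and 1316, 607, 1379, 1341 and 1694 CPM in UCP1 KO (log2 fold change 1.59 ± 0.23, adjusted p = 0.00197), without overlap. The glucose-6-phosphate isomerase Gpi1 rose by 1.08, the liver phosphofructokinase Pfkl by 1.73, the phosphoglycerate kinase Pgk1 by 1.43 and the enolase Eno1 by 1.55. Eno1 has a close copy, Eno1b, which was also called, and how reads were shared between them is not known. The insulin-regulated glucose transporter Slc2a4 had a log2 fold change of 0.69 (adjusted p = 0.461) and the constitutive transporter Slc2a1 one of -0.35 (adjusted p = 0.528). In glycerol metabolism 2 of 15 genes were called. Gk, glycerol kinase, had 11.2, 11.6, 10.8, 12.9 and 11.1 CPM in WT and 119, 35.3, 92.2, 91.1 and 326 CPM in UCP1 KO (log2 fold change 3.53 ± 0.44, adjusted p = 0.00064), and Gpd2, which passes electrons from glycerol 3-phosphate to the respiratory chain, rose by 2.59 ± 0.33. The WT values of Gk were nearly equal, whereas the UCP1 KO values differed widely among themselves. The cytosolic partner Gpd1 was higher in every UCP1 KO library but was not called (log2 fold change 1.88, adjusted p = 0.0399), except in the low-score libraries (2.08, adjusted p = 0.00181).

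Among genes of fatty acid synthesis, elongases passed the test. Of 18 lipogenic genes 2 were called over all libraries and 7 in those of low score (11 without UCP1 KO replicate 1). The 2 were the elongases Elovl3 and Elovl6 (121, 86.8, 54.3, 105 and 44.2 CPM in WT, 291, 336, 793, 912 and 1107 CPM in UCP1 KO; log2 fold change 3.06 ± 0.55, adjusted p = 0.00657). The enzymes that make the fatty acid chain, Acly (1.87, adjusted p = 0.0658), Acaca (1.39, 0.127) and Fasn (1.25, 0.314), were not called. In the low-score libraries Acaca was called (1.58, adjusted p = 0.00543), and Acly (1.89, adjusted p = 0.0196) and Fasn (1.31, adjusted p = 0.0101) were not. Of 23 genes of lipid droplets and lipolysis edgeR called only Cidea over all libraries, DESeq2 called 5 and edgeR 5 in the low-score libraries, while the lipases Pnpla2 and Lipe had log2 fold changes of 0.10 and 0.02. The perilipins Plin5 (2.66, adjusted p = 0.0106), which ties droplets to mitochondria, and Plin2 (1.91, adjusted p = 0.0247) did not pass over all libraries, although their groups did not overlap, and did in those of low score (log2 fold changes 2.75 and 1.94, adjusted p = 0.00178 and 0.00505). None of 26 peroxisomal genes was called by edgeR, though 10 were higher with an unadjusted p under 0.05, and DESeq2 called 4. Among them Slc27a2, an importer of very long chain fatty acids, had a log2 fold change of 5.10 ± 1.11 (adjusted p = 0.0196), with 39.5, 7.05, 19.9, 24.9 and 76.4 CPM in UCP1 KO and at most 1.77 CPM in WT. It was called in the low-score libraries (5.53, adjusted p = 0.00289).

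Among regulators of fat oxidation and mitochondria, Ppara and Esrra rose. Of 25 genes of the PPAR, PGC1 and ERR families and their partners 2 were called. Ppara, the fatty acid receptor that drives oxidation genes, had 11.7, 15.3, 12.1, 24.7 and 20.3 CPM in WT and 76.7, 70.0, 162, 192 and 376 CPM in UCP1 KO (log2 fold change 3.38 ± 0.56, adjusted p = 0.00382). Esrra, the estrogen-related receptor α that acts on mitochondrial genes, had 25.1, 25.3, 25.4, 27.9 and 35.1 CPM in WT and 50.5, 40.3, 56.5, 48.9 and 66.5 CPM in UCP1 KO (log2 fold change 0.92 ± 0.14, adjusted p = 0.00197). Both were without overlap between the groups. Ppargc1a, which encodes the coactivator PGC1α, had a log2 fold change of 1.46 ± 0.41 that was not called (adjusted p = 0.0694), and the adipocyte master regulator Pparg one of 0.03 ± 0.46. Esrrg (2.23, adjusted p = 0.0252) and Ppargc1b (1.64, adjusted p = 0.0276), which act with PGC1 coactivators or as one, were not called.

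Of 28 genes of adrenergic and cAMP signalling, 1 was called. It was Adcy10, the soluble, bicarbonate-sensitive adenylyl cyclase, with 1.27, 1.24, 1.78, 0.971 and 0.727 CPM in WT and 3.97, 2.81, 8.56, 10.7 and 10.5 CPM in UCP1 KO (log2 fold change 2.60 ± 0.47, adjusted p = 0.00657). The membrane cyclase Adcy3 did not pass over all libraries (1.49, adjusted p = 0.0105) and did in those of low score (1.65, adjusted p = 0.00881), and Adrb3, the β3 receptor through which noradrenaline acts on fat cells, had a log2 fold change of -0.17 ± 0.45. Dio2, which converts thyroxine into active thyroid hormone within brown fat and is a classical target of cAMP, was the only one of 9 thyroid hormone genes to be called. It had 0.499, 0.808, 0.755, 2.27 and 1.48 CPM in WT and 47.7, 6.95, 15.2, 10.8 and 68.4 CPM in UCP1 KO (log2 fold change 4.67 ± 0.77, adjusted p = 0.00357), with the highest UCP1 KO values in replicates 1 and 5.

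Promoters of called genes were searched for 6 elements, most of them tied to these regulators. RefSeq sequences from 250 bases before to 50 bases after the start were matched for 73 of the 103 genes that rose. Shares are of genes, each counted as holding an element if any of its promoter sequences did. The full cAMP response element TGACGTCA, which reads the same on both strands, was held by 2.03% of all 27025 genes with a promoter sequence. It was held by 3 of the 73, Dio2, Tbrg4 and C030037D09Rik. The ERR-type element TCAAGGTCA on either strand was held by 0.466% of all these genes and by 1 of the 73, Fam131c, and overlaps the half-site AGGTCA (18.1% of all, 18 of the 73, among them Acadvl, Elovl6, Pkm and Kng2). The element TGATGCAA, a shape bound by C/EBP and ATF proteins, was held on either strand by 1.03% of all and by 3 of the 73, Fgf21, Esrra and Chchd10. The ETS-type element CCGGAAG, common near the starts of mitochondrial genes, was held by 9.93% of all and by 16 of the 73, and the NRF1-type element GCGCATGCG by 1.95% of all and by 2 of the 73, Ppara and Ndufaf4, again on either strand. A match is a description of letters and not a shown site of binding. The 250 bases before the start of 3 genes are shown, 5′ to 3′ on the strand of the gene (GRCm38.p6; Dio2 chr12:90739039-90739288, minus; Fam131c chr4:141367942-141368191, plus; Fgf21 chr7:45615491-45615740, minus), because each was among the largest rises and holds 1 of the elements, set in capitals:
Dio2: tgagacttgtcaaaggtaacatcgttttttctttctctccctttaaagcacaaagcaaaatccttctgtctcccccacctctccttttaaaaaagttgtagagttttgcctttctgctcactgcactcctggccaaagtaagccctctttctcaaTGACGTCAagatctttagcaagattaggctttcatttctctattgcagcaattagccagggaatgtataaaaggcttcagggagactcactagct
Fam131c: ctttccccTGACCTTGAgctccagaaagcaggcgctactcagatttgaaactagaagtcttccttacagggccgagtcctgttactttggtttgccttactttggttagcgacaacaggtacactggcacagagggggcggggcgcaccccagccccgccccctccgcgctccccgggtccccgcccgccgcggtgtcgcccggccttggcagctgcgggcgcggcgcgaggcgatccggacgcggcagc
Fgf21: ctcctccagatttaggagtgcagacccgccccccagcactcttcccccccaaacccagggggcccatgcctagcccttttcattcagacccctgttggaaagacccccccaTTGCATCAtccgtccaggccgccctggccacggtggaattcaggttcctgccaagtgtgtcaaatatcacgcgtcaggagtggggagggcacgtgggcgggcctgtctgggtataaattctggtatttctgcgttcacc
In Dio2 the element begins 95 bases before the start, in Fam131c 242 bases and in Fgf21 139 bases, and in the latter 2 it lies on the opposite strand.

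Of the 103 genes that rose, 66 were in none of the lists, and those described here were chosen after their values were seen. Letmd1, an inner membrane protein needed in brown fat mitochondria, had 52.9, 51.4, 50.3, 53.6 and 43.3 CPM in WT and 153, 104, 275, 238 and 454 CPM in UCP1 KO (log2 fold change 2.28 ± 0.28, adjusted p = 0.00064). Phospho1, a phosphatase of choline and ethanolamine phosphates, had 11.4, 12.3, 11.3, 13.8 and 17.8 CPM in WT and 128, 44.5, 149, 148 and 369 CPM in UCP1 KO (log2 fold change 3.65 ± 0.50, adjusted p = 0.0012). Both genes were free of overlap. Chchd10, of the intermembrane space, rose by 2.68 ± 0.46, the cyclophilin Ppif, which regulates the permeability transition pore, by 1.44 ± 0.20, the complex I assembly factor Ndufaf4 by 1.13 ± 0.19 and Adck3, a kinase-like protein of coenzyme Q synthesis, by 1.32 ± 0.25. Proteins that handle mitochondrial RNA or its translation rose by smaller steps, Lrpprc by 1.01 ± 0.17, Ptcd3 by 0.95 ± 0.17, Fastkd1 by 0.88 ± 0.15, Tbrg4 by 0.70 ± 0.11 and the mitochondrial cysteinyl-tRNA synthetase Cars2 by 0.62 ± 0.11. The import factor Timm8a1 (1.10 ± 0.20) and Samm50 (0.92 ± 0.18), the core of outer membrane protein assembly, rose as well. Of the 20 fits without 1 library all called Letmd1, Phospho1 and Ppif, 13 called Chchd10, 16 Ndufaf4, 6 Adck3, 14 Lrpprc, 12 Ptcd3, 15 Fastkd1, 17 Tbrg4, 7 Cars2, 8 Timm8a1 and 3 Samm50.

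Among genes outside the lists with other roles, Ppp1r3b, which directs protein phosphatase 1 to glycogen, rose from 12.7 ± 3.28 to 112 ± 57.7 CPM (SD, n = 5 each; log2 fold change 3.13 ± 0.54, adjusted p = 0.00447), Impa2, an inositol monophosphatase, by 2.01 ± 0.25 and the motor protein Myo5b by 3.03 ± 0.42 on the log2 scale. Dhrs9, a retinol dehydrogenase, rose by 4.07 ± 0.64, the collagen Col27a1 by 1.72 ± 0.27, Mtor, the growth kinase, by 0.97 ± 0.17 and Ppcs, which acts after pantothenate kinase in coenzyme A synthesis, by 1.11 ± 0.19. Of the genes just described, Dhrs9 (2.53) and Ppcs (0.67) were also called higher in BAT, and Adck3 fell there (-0.98).

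Fgf21 itself rose in inguinal fat. It had 0.139, 0.318, 0.0809, 0.151 and 0.0485 CPM in WT and 0.861, 0.594, 6.50, 9.64 and 14.0 CPM in UCP1 KO (log2 fold change 5.40 ± 0.90, adjusted p = 0.00688). In reads these were 2 to 11 per WT library and 28, 23, 176, 286 and 385 in UCP1 KO, and replicates 3 to 5 were far above replicates 1 and 2. Like Bmp8b, Fgf21 passed the low-count filter only through the UCP1 KO libraries, with 0 reads in dKO and at most 1 in FGF21 KO. In the low-score libraries the log2 fold change was 5.39, not called (adjusted p = 0.0145). The receptors did not pass the test over all libraries, with log2 fold changes of -0.49 ± 0.30 for Fgfr1 and 0.41 ± 0.38 for Klb, which encodes β-Klotho, although Fgfr1 was called lower in the low-score libraries (-0.69, adjusted p = 0.00368). Apart from Fgf21, none of the 21 genes of FGF21 receptors and FGF-ERK feedback was called by edgeR over all libraries. Dusp4 was higher and Fgfr3 and Spry1 were lower at an unadjusted p under 0.05, and DESeq2 called 2 of the list. The nearest to a call was the phosphatase Dusp4 (1.33, adjusted p = 0.0165), which was called in the low-score libraries (1.52, adjusted p = 0.00801). Of 19 secreted factors of brown fat 3 rose, Fgf21, Bmp8b and Kng2, a kininogen, which had 0.499, 0.375, 0.539, 0.216 and 0.218 CPM in WT and 5.44, 2.56, 21.4, 22.1 and 56.7 CPM in UCP1 KO (log2 fold change 5.87 ± 0.85, adjusted p = 0.00182). Gdf15, a stress hormone that curbs appetite, was higher in each UCP1 KO library than in WT but was not called over all libraries (log2 fold change 2.32 ± 0.51, adjusted p = 0.0197). It was called in those of low score (2.71, adjusted p = 0.00875). Nrg4 (0.39), Vegfa (0.08), Slit2 (0.16), Epdr1 (0.10), Adipoq (-0.28) and Rbp4 (-0.28) were not called. In Vegfa, Slit2 and Epdr1 the sign turned once the lymph node score was a term of the model.

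Of 23 genes of the integrated stress response, the programme to which Fgf21 belongs, Fgf21 alone was called (DESeq2 called 5), 9 were higher with an unadjusted p under 0.05, and the median was 0.45. Atf4, its central transcription factor, had 106, 114, 111, 111 and 116 CPM in WT and 139, 118, 131, 150.4 and 179 CPM in UCP1 KO (log2 fold change 0.37 ± 0.09, adjusted p = 0.0439) and was not called, although the UCP1 KO libraries all lay above WT by a small step. Trib3 (1.97, adjusted p = 0.0641) and Ddit3 (1.10, 0.0507) were not called.

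Several lists gave no edgeR call over all libraries. None of 16 white adipocyte genes and adipokines was called by edgeR or DESeq2, 1 was lower at an unadjusted p below 0.05, and the median was -0.23. Their summed level was 14900, 15350, 17810, 12420 and 9529 CPM in WT and 13770, 6973, 13540, 12510 and 8369 CPM in UCP1 KO, with overlap. Of routes of heat production without UCP1, 0 of 7 genes of creatine cycling were called (1 at an unadjusted p under 0.05, DESeq2 0), 0 of 13 of calcium cycling (4 higher and 1 lower, DESeq2 2) and 0 of 2 of amino acid uncoupler synthesis (0, DESeq2 0). Over all genes 0.593% were called higher and 0.0173% lower, shares at which lists this small can have 0 calls. In the low-score libraries edgeR called 0 of these genes, and 4 creatine and 9 calcium genes had an unadjusted p under 0.05. Such a p was found there for 5172 of all 17380 genes. Without UCP1 KO replicate 1, 1 creatine gene was called higher, and 2 calcium genes higher and 1 lower. Ckmt2, the mitochondrial creatine kinase, had 0.249, 0.0866, 0.243, 6.19 and 130.4 CPM in WT and 79.3, 0.258, 0.369, 0.236 and 2.10 CPM in UCP1 KO, and its highest libraries, WT replicate 5 and UCP1 KO replicate 1, were those with the highest muscle markers. The ryanodine receptor Ryr2 had 0.637 to 1.86 CPM in WT and 1.54, 5.11, 5.39, 5.22 and 6.05 CPM in UCP1 KO (log2 fold change 2.10 ± 0.51, adjusted p = 0.0332), and 1 UCP1 KO library lay in the WT range. The calcium pump Atp2a2 (0.36), the creatine transporter Slc6a8 (0.09) and Pm20d1 (0.52), an enzyme that joins fatty acids to amino acids, were not called.

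Of 14 blood vessel genes 13 had a log2 fold change below 0, the median was -0.40, 4 were lower with an unadjusted p under 0.05 and 0 were called by edgeR or DESeq2. In the low-score libraries 8 had such a p and 1 was called lower, and with the lymph node score as a term 10 and 2. Pecam1, an endothelial adhesion protein, had 299, 343, 362, 281 and 226 CPM in WT and 212, 228, 249, 210.2 and 245 CPM in UCP1 KO (log2 fold change -0.40 ± 0.12, adjusted p = 0.0813), and WT replicate 5, of high lymph node score, lay within the UCP1 KO range. In macrophage and inflammation genes edgeR called 0 of 22 (4 at an unadjusted p under 0.05, DESeq2 0), in collagens and extracellular matrix 0 of 24 (0, DESeq2 0), in insulin signalling 0 of 14 (1, DESeq2 0), in branched-chain amino acid catabolism 0 of 19 (4, DESeq2 0) and in the cell cycle 0 of 16 (0, DESeq2 0). In the low-score libraries 2 macrophage and 2 branched-chain genes were called higher, against 3.22% of all genes. Without UCP1 KO replicate 1 these were 2 and 10, against 5.38%. Of the collagen and matrix genes 11 had an unadjusted p under 0.05 in the low-score libraries, as had 5172 of all 17380 genes. With the lymph node score as a term 10 had such a p and 1 was called lower, as was 1 insulin signalling gene. Markers of endothelium (6), fibroblasts and preadipocytes (9), macrophages (6), Schwann cells (4) and epithelium (4 of 7 tested) likewise had 0 calls, with medians of -0.40, -0.40, 0.003, -0.38 and 0.27, and 1, 1, 0, 0 and 0 of them had an unadjusted p under 0.05. DESeq2 called 0 of each. In the low-score libraries 5 of 6 endothelial markers had such a p and 1 was called lower, with a median of -0.605.

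**Figure D3:**
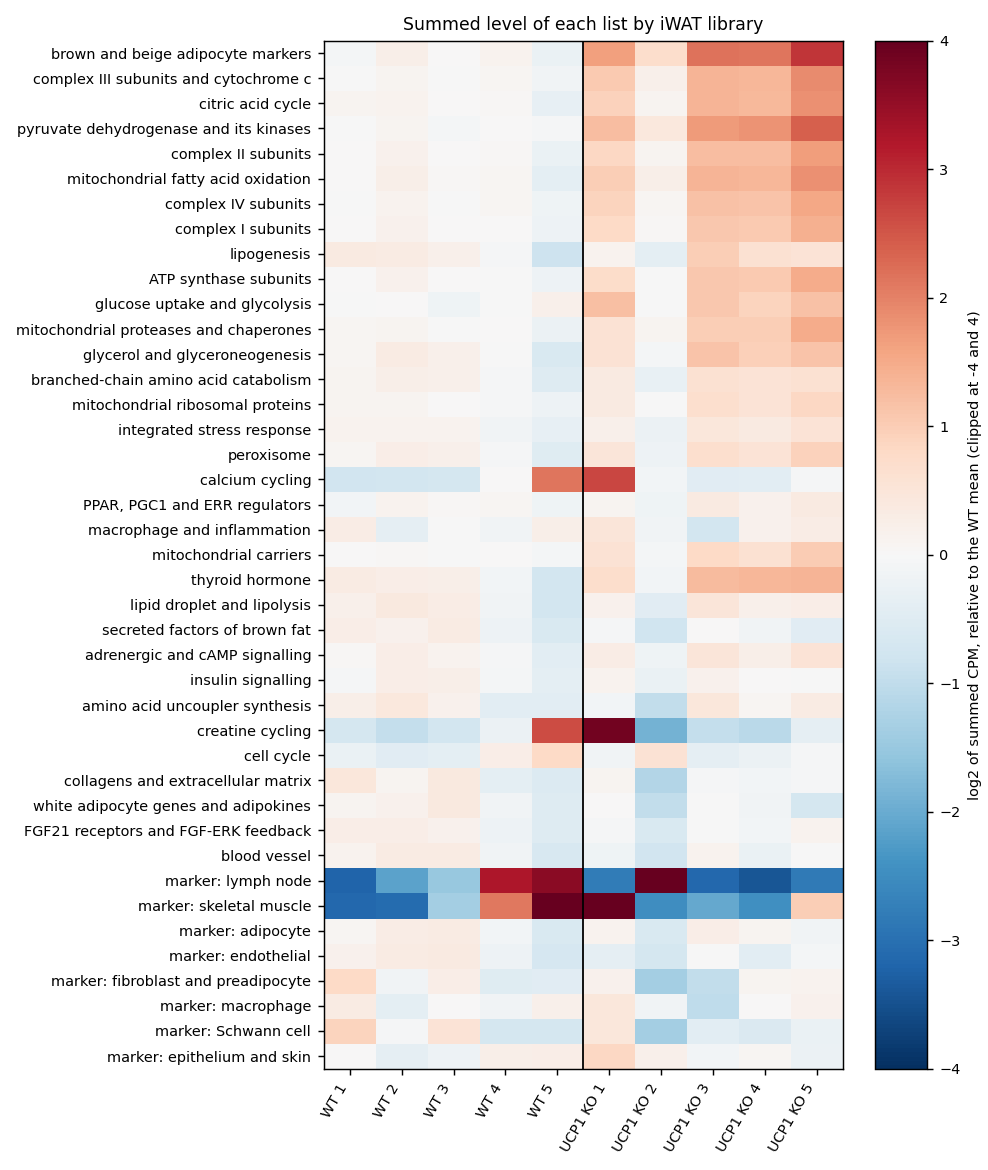
Summed CPM of each list in the 5 WT and 5 UCP1 KO iWAT libraries, as log2 relative to the WT mean (red higher, blue lower, clipped at -4 and 4). The lymph node row is highest in WT replicates 4 and 5 and UCP1 KO replicate 2, the muscle row in WT replicate 5 and UCP1 KO replicate 1, and UCP1 KO replicate 2 is palest in the oxidative lists.

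The UCP1 KO libraries differed in how far they rose. The median log2 level of the 103 higher genes over the WT mean was 1.44, 0.85, 2.06, 2.09 and 2.65 in UCP1 KO replicates 1 to 5. Replicate 5 was the highest of its group in 93 of these genes, and replicate 2 the lowest in 90. Replicate 2 had a lymph node score of 7.17, against 0.0603 to 0.556 in the other 4, and replicate 1, the next lowest, had the highest muscle score, 10.2. The part of lymph node or muscle tissue in these differences was not tested. In fits with the muscle score as a covariate 106 genes were called, 97 of them shared with the fit without it, and with the lymph node score in its place all 106 were among the 821 called.

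The corresponding contrast of labels without FGF21 is dKO against FGF21 KO, from other libraries of the same tissue. Ucp1 had 0.955, 21.4, 0.134, 0.230 and 0.541 CPM in FGF21 KO and 4.0, 17.3, 22.4, 29.1 and 24.5 CPM in dKO, with overlap and not called (log2 fold change 2.08, edgeR adjusted p = 0.542). In this contrast the median log2 fold change of the 103 genes was 0.30. Elovl3 had 0.239, 0.584, 0.178, 4.26 and 0.135 CPM in FGF21 KO and 0.368, 1.67, 3.92, 6.25 and 1.20 CPM in dKO, so that no dKO library reached the lowest UCP1 KO library, at 56.6 CPM. Acot11 had 9.01, 4.64, 10.1, 7.86 and 7.57 CPM in FGF21 KO and 8.82, 5.39, 16.4, 15.6 and 3.52 CPM in dKO, all far below the lowest UCP1 KO library, at 85.7 CPM. Cidea had 8.93, 30.4, 2.62, 4.54 and 4.79 CPM in FGF21 KO and 10.2, 40.9, 32.0, 68.4 and 42.3 CPM in dKO, and 1 dKO library was above the highest WT library, at 45.5 CPM, and none reached the lowest UCP1 KO library, at 185 CPM. Of the 5 FGF21 KO libraries 4 had a high lymph node score, against 2 of the 5 dKO libraries, so this contrast is not balanced in lymph node content.

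The difference between the 2 responses, UCP1 KO minus WT less dKO minus FGF21 KO, was tested directly and no gene passed (edgeR, 0 of 17380, smallest adjusted p = 0.018, for Acot11; DESeq2 called 62). Without UCP1 KO replicates 1 and 2 in turn 1 and 3 genes passed, and 29 in the low-score libraries without UCP1 KO replicate 1. At an unadjusted p under 0.05, 1734 genes differed, 5.25% of genes with the more positive and 4.73% with the more negative response when FGF21 was present. By list, the responses with FGF21 present and absent had medians of 2.23 and 0.70 for brown and beige markers, 1.06 and 0.60 for fatty acid oxidation, 0.89 and 0.41 for complex I and -0.23 and 0.49 for white adipocyte genes. Of the brown and beige markers 16 of 29 and of fatty acid oxidation 9 of 30 had the more positive response with FGF21 present at an unadjusted p under 0.05, and 3 of 36 for complex I. UCP1 KO and WT libraries enter both the response and this difference, so the difference was not used to support the calls.

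In brown fat, from other libraries, the same genotypes gave a different picture. Of the 103 genes higher in iWAT, all tested in both tissues, 15 were called higher in BAT, against 8.54% of all genes tested there, 2 lower (Xrcc6 and Adck3), against 5.81%, and 86 not, and their median log2 fold change in BAT was -0.004. The difference between the iWAT and the BAT response was tested over 15479 genes. It was larger in iWAT for 750 genes (4.85%) and smaller for 408 (2.64%). By list, 30 of 36 complex I genes, 16 of 18 of the citric acid cycle and 14 of 30 of fatty acid oxidation had a called difference towards iWAT, and their medians in BAT were -0.32, -0.29 and -0.27. The integrated stress response went the other way. Its median was 2.54 in BAT with 16 of 23 called higher, and 9 had a called difference towards BAT and 0 towards iWAT. Of macrophage and inflammation genes 11 of 20 were called higher in BAT, and 3 had a called difference towards BAT. Of the 6 macrophage markers 4 were called higher in BAT. The 10 skeletal muscle markers had a summed level of 32.3 to 141 CPM in WT and 72.3 to 10720 CPM in UCP1 KO of BAT, a median log2 fold change of 4.83 and 10 of 10 at an unadjusted p under 0.05 (edgeR called 0). The part of muscle or macrophages in the BAT values was not tested.

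Fgf21 was among the genes that rose in both tissues. It had 0.294, 0.295, 0.295, 0.276 and 0.351 CPM in WT and 11.6, 29.4, 42.1, 34.7 and 29.2 CPM in UCP1 KO of BAT (log2 fold change 6.59), and the difference between tissues was not called (adjusted p = 0.376). Bmp8b rose by 4.74 and Acot2 by 2.41 in BAT. Elovl3 rose in both, by 8.39 in iWAT and 3.31 in BAT, with a called difference. Cidea (-0.08), Dio2 (-0.04), Cpt1b (-0.40), Ppara (-0.69) and Acot11 (0.23) were not called in BAT, and for each the difference between tissues was. Gdf15 went towards BAT, with a log2 fold change of 6.12 there and a called difference, and Atf4 rose by 1.24 in BAT, again with a called difference.

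**Figure D4:**
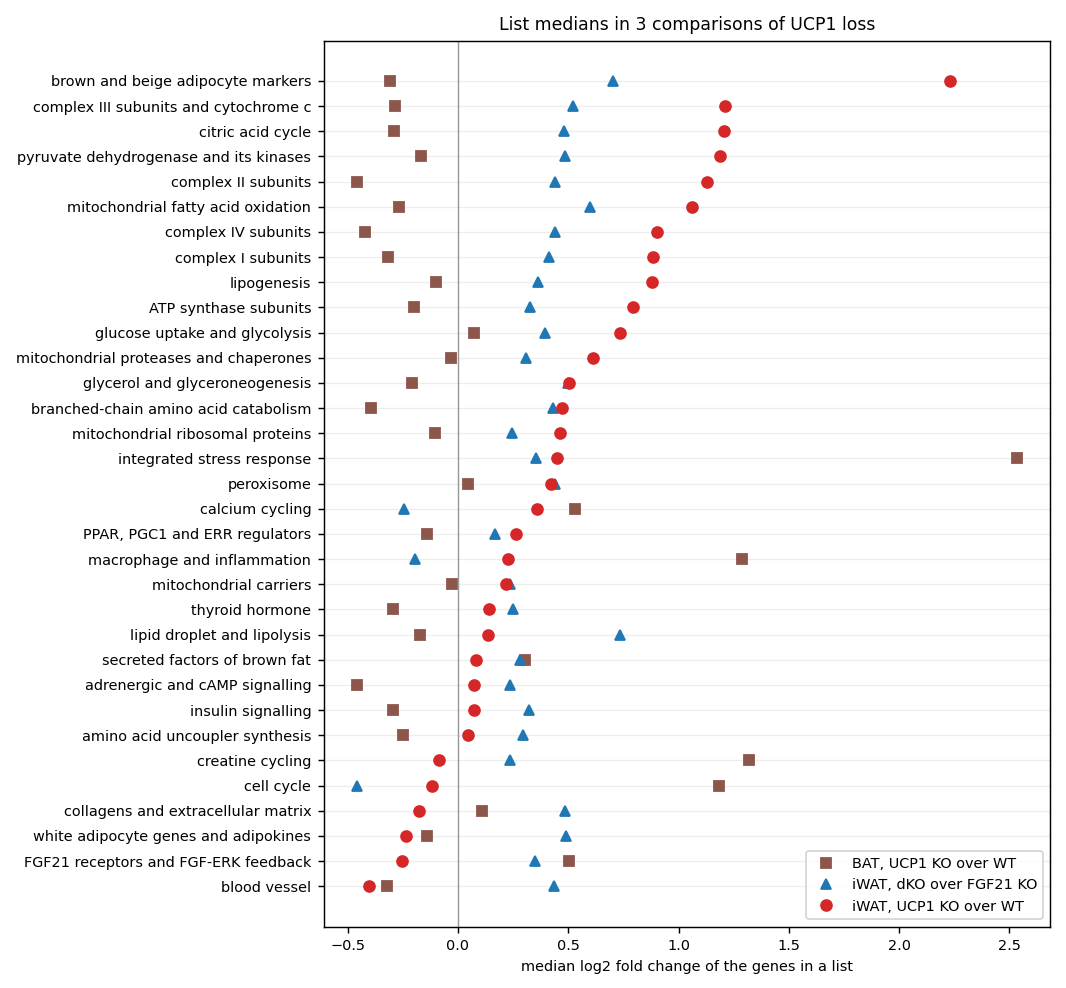
Median log2 fold change of each list for UCP1 KO over WT in iWAT (circles), dKO over FGF21 KO in iWAT (triangles) and UCP1 KO over WT in BAT (squares). Circles lie to the right of triangles and squares for the brown and beige and oxidative lists, and for the integrated stress response the square, at 2.54, lies furthest right.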

How the data were processed

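RNA was sequenced from 80 libraries of 4 genotypes and 4 tissues, 5 per genotype and tissue, and 1 file per library was deposited. Per the labels and the study's methods, the authors aligned reads to mm10 (GRCm38) with STAR and counted them on UCSC known genes with HTSeq. The deposited values are raw counts per gene symbol, without normalization. Whether HTSeq counted by strand is not given in the sources used here. The row that names no gene held at most 2.42e-05% of the counts of a library and was left out. Of the names tested 112 end in a space and were kept as rows of their own, 30 of them repeating another name (Dlst among list members). Liver and muscle libraries were not used here.

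Groups were taken from the sample labels, which give no replicate numbers and do not link libraries of a mouse. P-values measure the spread between libraries, which the edgeR fits take as 1 value per gene for all genotypes in the fit. The compared groups can differ in spread. Gk had 132.7 ± 112.1 CPM in UCP1 KO and 11.51 ± 0.8526 CPM in WT (SD, n = 5 each). Libraries of iWAT and BAT were treated as independent. No 2 of the 20 iWAT libraries had identical counts.

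By the filter of the study's methods, genes were kept if their highest count exceeded 15, their counts summed to more than 75 and no more than 10 libraries were at 0. Counts were scaled by TMM and fitted with the edgeR quasi-likelihood model (version 4.0.16; R 4.3.3; limma 3.58.1), in which each genotype had its own mean, over 20 iWAT libraries and, for the difference between tissues, over iWAT and BAT together. P-values were adjusted by Benjamini-Hochberg over all genes tested, and genes with an adjusted p under 0.01 were called. SEs were derived from the log2 fold change and F. DESeq2 1.42.0, the tool of the study, was an alternative, as were RLE factors, no filter (1 count or more), a threshold of 0.05, only the 10 libraries compared, marker scores as covariates, libraries with a lymph node score at or under 4, counts thinned to the smallest total, a prior count of 0.5 in place of 2 for single genes, and each library left out. The code was tested on simulated data.

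The genes named were those of the study's figures of secreted factors, browning, other thermogenic routes and lipid genes, the called genes without overlap that rose most (15) or fell most (5), the 3 members of lowest p in each list and called genes within 10 Mb of Ucp1. Uncharacterised names were passed over, and 1 gene that the rule names is not reported here. All other genes were picked with their values in view. Members and lists, the limit on the lymph node score and the motifs were chosen with earlier results of these data known.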

Additional observations from a re-analysis of the deposited data

Results flagged for a closer look

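In 86 groups of 5 values, from 40 genes and 3 library measures per genotype, the highest or lowest value stood apart from the others by Dixon's criterion in 7, where chance alone gives about 1 in 20. In WT these were Slit2 in replicate 1, at 4.71 CPM against 2.74 to 3.19 CPM in the others, Aspg in replicate 4, at 3.5 CPM against 1.27 to 1.58 CPM, and the total of replicate 4, 44683908 counts against at most 39058294. In UCP1 KO they were the lymph node score of replicate 2, 7.17 against at most 0.556, the levels of Slit2 (1.08 CPM against 3.66 to 5.14 CPM) and Nrg4 (64.8 CPM against 114 to 122 CPM) in the same library, and Ryr2 in replicate 1, at 1.54 CPM against 5.11 to 6.05 CPM. The part of lymph node tissue in the values of replicate 2 was not tested.

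The differences between libraries labelled UCP1 KO and WT in iWAT and in BAT were themselves different in 1158 genes (edgeR, adjusted p under 0.01). Among the 40 genes examined 20 did so, and of these 18 had the more positive response in iWAT. The difference in log2 fold change, iWAT minus BAT, was 8.23 for Ucp1, 6.72 for Lgr6, 6.09 for Atp4b, 5.88 for Cpn2, 5.64 for Slc2a5, 5.33 for Kng2, 5.21 for Aspg, 5.11 for Acot11, 5.03 for Elovl3, 4.95 for Cidea, 4.66 for Dio2, 4.11 for Cpt1b and 3.79 for Cox7a1. It was 3.18 for Gk, 2.99 for Arhgdig, 2.94 for P2rx5, 2.3 for Cacna1a and 2.26 for Gpd1. In the other direction it was -2.15 for Epdr1 and -3.84 for Gdf15. Most of these genes were named for their rise in iWAT, so their differences are not independent of that choice.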

How the results depend on the processing

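The number of genes called between UCP1 KO and WT in iWAT, 106, was within 1.5 times of that value with RLE factors, without the low-count filter, with the muscle score as a covariate and with thinned counts, from 89 to 137. It was 597 by DESeq2, 450 at an adjusted p of 0.05 (402 higher, 48 lower), 1 with only the 10 libraries compared, 821 with a lymph node covariate, 649 in the low-score libraries and 1121 in those without UCP1 KO replicate 1, the library richest in muscle among them, a setting chosen after seeing the data. The share that was higher, 97.2%, was 65.9% with that covariate and 86.3% and 83.4% in the low-score libraries with and without that replicate. Leaving out 1 library gave 16 (without WT replicate 1 or 2) to 360 (without UCP1 KO replicate 2). Fitting only the 10 libraries left fewer residual degrees of freedom, and 90 of the 106 genes had an adjusted p under 0.05 there. For the difference between the responses with and without FGF21, 0 genes became 62 by DESeq2, 1 at an adjusted p of 0.05, 3 with the lymph node covariate, 29 in the low-score libraries without UCP1 KO replicate 1 and 0 to 3 without 1 library, and stayed 0 in the other alternatives. For the difference between iWAT and BAT, 1158 genes became 2430 at an adjusted p of 0.05 (1380 higher, 1050 lower) and 2077 in the low-score libraries, with 867 to 1608 without 1 library and 976 to 1553 otherwise.

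Of 190 named genes (189 for DESeq2, which gave no adjusted p for Ckmt2) none changed sign under DESeq2, RLE factors, no filter, thinning, the muscle covariate or only 2 genotypes. With the lymph node covariate the log2 fold change turned to -0.12 for Epdr1, -0.20 for Vegfa, -0.17 for Slit2, 2.71 for Ckmt2 and -0.13 for Slc6a8, and in the low-score libraries to 6.71 for Ckmt2 and 0.01 for Thrb (2.17 and 0.064 without UCP1 KO replicate 1). None of these was called over all libraries. Without 1 library Epdr1 ranged from -0.052 to 0.259, Vegfa from -0.007 to 0.24, Ckmt2 from -5.22 to 3.27 and Slc6a8 from -0.084 to 0.293, and the cause was not tested. No paired analysis was possible because the labels carry no replicate numbers and do not link libraries. Counts of a few reads per WT library limit the folds of Bmp8b, Sptlc3, Atp4b, Fam131c and Arhgdig.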

Other observations

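In the libraries of low lymph node score alone, 560 genes were called higher and 89 lower in UCP1 KO, and the genes named here were chosen after their values were seen. Fgfr1, the main FGF21 receptor of fat cells, fell there (-0.69, adjusted p = 0.00368), as did Tek, the endothelial receptor of angiopoietins (-0.64, adjusted p = 0.00853), whereas neither was called over all libraries (edgeR adjusted p = 0.508 and 0.523). They were the only members of the lists called lower. Among genes in no list, Il18r1, a subunit of the interleukin 18 receptor, fell by 1.69 on the log2 scale, Abat, which degrades the transmitter GABA, by 1.60 and the vasopressin receptor Avpr1a by 1.45.

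List medians kept their sign there, except for creatine cycling, amino acid uncoupler synthesis, insulin signalling and the cell cycle. The numbers called higher were 33 of 36 for complex I, 10 of 10 for complex III and cytochrome c, 12 of 15 for complex IV, 9 of 16 for ATP synthase, 15 of 18 for the citric acid cycle, 12 of 14 for the pyruvate dehydrogenase complex and its kinases and 21 of 75 for mitochondrial ribosomal proteins. Skeletal muscle markers had a median of 6.98 in these libraries, which include UCP1 KO replicate 1, and 10 of 10 had an unadjusted p under 0.05, although edgeR called 0. Without that replicate these markers had a median of 1.93, 3 had such a p and edgeR called 0, and 35 of 36 complex I, 13 of 15 complex IV and 16 of 18 citric acid cycle genes were called higher. The part of muscle in the low-score values was not tested.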
